A study of Rattus norvegicus with 421 samples.

Results

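The arrays described here are the liver mRNA profiles of rats given 2-Nitrofluorene (2-NF) for 3 or 7 days, with the corn oil controls of the same study block and day. They were chosen by their titles and make up 12 of the 293 treated and 128 vehicle arrays of the series, with 3 rats in each of the 4 groups. The series compares liver expression after repeated dosing with carcinogens and non-carcinogens, and each array is an Affymetrix GeneChip RAE230A with 15866 probe sets. All animals were male Wistar Hanover rats, of the stock Crl:WI[Gl/BRL/Han]IGS BR, aged 8 to 10 weeks when dosing began, and all received their suspension by gavage. The treated groups were given 2-NF at 44 mg/kg for 3 days (2-NF_3d) or 7 days (2-NF_7d), and the time-matched controls were given corn oil alone for 3 days (CO_1C_3d) or 7 days (CO_1C_7d). For comparison at day 7, 3 rats given Dimethylnitrosamine at 4 mg/kg (DMN) and 3 given C.I. Direct Black at 146 mg/kg (CIDB) were used, which belong to the same block and share the corn oil controls. 2-Acetylaminofluorene (2-AAF) at 1.2 mg/kg for 3 or 7 days, from another block with carboxymethyl cellulose as vehicle, is set beside 2-NF without a test. Changes are also ranked among the 98 treated groups of the series. Dose groups held 5 rats, and the general methods of the study, which do not name 2-NF, say that the arrayed animals of a treated group were picked for showing some change in liver histology. Whether this was done for the 2-NF groups is not stated there. Each array is 1 animal, so the replicate spread is a spread between animals.

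2-NF is a nitroarene from combustion products. Nitroreduction turns it into 2-aminofluorene, and N-hydroxylation of the amine, followed by acetylation or sulfation, gives species that bind guanine in DNA. DNA damage stabilizes p53, which raises the transcription of cell cycle inhibitors and of its own ubiquitin ligase, Mdm2. Electrophiles and quinones release NRF2 from Keap1, and NRF2 raises conjugating and reducing enzymes through antioxidant response elements. Both programmes are well known in rat liver exposed to aromatic amines.

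All values are log2 intensities as deposited, and changes are differences of group means on that scale, with the standard error (SE) of the linear model. A probe set was called when its adjusted p was below 0.05 and its change was at least 1.5-fold. The array medians of the 12 arrays lay between 7.40 and 7.46, within the 7.38 to 7.49 of all arrays. The 11 measured hepatocyte markers had array means of 13.06 to 13.32 across the 4 groups, with no separation of treated from control arrays.

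After 3 days, 155 of 15866 probe sets differed between 2-NF and corn oil (0.977%), of which 98 rose (0.618%) and 57 fell (0.359%). After 7 days 184 differed (1.16%), of which 124 rose (0.782%) and 60 fell (0.378%). Counting each named gene by its brightest probe set, 70 genes rose (0.672%) and 43 fell (0.413%) at day 3, together 1.09% of 10411 genes. At day 7, 92 rose (0.884%) and 46 fell (0.442%), together 1.33%. The median change over all genes was -0.011 at day 3 and -0.003 at day 7. The largest rises at both days included the glutathione transferase Gsta3, the aldehyde reductase Akr7a3, the aldehyde dehydrogenase Aldh1a1 and the p53 targets Ccng1 and Cdkn1a. The largest falls included the apolipoprotein Apoa4 and the methyltransferase Bhmt at day 3, and the steroid reductase Akr1c1 and the beta globin Hbb at day 7. In 110 of the 113 genes called at day 3 and in 128 of the 138 called at day 7, every 2-NF array lay beyond every corn oil array. This was counted only among genes that the same arrays had called, so it is a description and adds no support to the calls.

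The p53 target list held 17 measured genes. At day 3, 6 of them rose and none fell, at day 7 5 rose and none fell, and the list's median change was 0.35 at both days. Beside this stand 0.672% of all genes that rose at day 3 and 0.884% at day 7. Cyclin G1 (Ccng1), cyclin-dependent kinase inhibitor 1A (Cdkn1a, p21) and Mdm2 carried the largest changes, and the promoters of the first 2 are shown because both hold a p53 half-site. The sequences are from RefSeq (GRCr8), 250 bases before to 50 after the gene's start, with the half-site in capitals. Ccng1 lies at chr10:25684827-25685126 on the minus strand, with the half-site starting at position -232 from the gene's start. Cdkn1a lies at chr20:7150682-7150981 on the plus strand, with the half-site starting at position -201.
Ccng1: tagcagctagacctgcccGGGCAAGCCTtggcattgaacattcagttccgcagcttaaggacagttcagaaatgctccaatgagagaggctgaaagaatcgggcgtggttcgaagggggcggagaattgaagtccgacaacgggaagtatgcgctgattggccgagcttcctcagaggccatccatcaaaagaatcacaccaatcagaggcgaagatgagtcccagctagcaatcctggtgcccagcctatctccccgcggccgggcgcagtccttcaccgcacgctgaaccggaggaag
Cdkn1a: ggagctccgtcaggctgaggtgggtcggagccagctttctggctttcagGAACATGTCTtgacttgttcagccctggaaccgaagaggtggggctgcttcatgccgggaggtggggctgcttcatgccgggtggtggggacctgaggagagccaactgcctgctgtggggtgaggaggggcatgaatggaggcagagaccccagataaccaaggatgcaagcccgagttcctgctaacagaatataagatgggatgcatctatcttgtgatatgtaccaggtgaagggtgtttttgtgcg
The p53 half-site (searched on both strands) was present in 5 of the 15 p53 targets with a promoter in the table (33.3%). It was in 6.87% of the promoters of measured genes and in 7.98% of all 33469 promoters. Among genes that rose at both days it was in 4 of 41 (9.76%). The Mdm2 window, chr7:55200742-55201041 on the minus strand, held none. A match describes these letters and was not tested as a binding site.

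Ccng1, a cyclin with a regulatory role downstream of p53, stood at 11.02, 10.31 and 10.47 in the day 3 2-NF livers and at 8.15, 8.04 and 8.16 in their controls. At day 7 the 2-NF arrays read 11.27, 10.90 and 10.35 against 8.30, 8.13 and 8.25. All treated arrays lay far above all controls at both days. The change was 2.48 ± 0.17 (SE, n = 3 per group, adjusted p = 2.96e-31, limma) at day 3 and 2.62 ± 0.17 (adjusted p = 4.14e-34) at day 7. These SE and p rest on the variance over all groups of the series. Across the alternative limma runs described below, the highest adjusted p of Ccng1 was 0.000217 at day 3 and 0.00404 at day 7.

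Cdkn1a, which halts the cell cycle by binding cyclin-dependent kinases, read 11.32, 11.20 and 10.40 against 9.18, 8.70 and 8.52 at day 3. At day 7 it read 11.61, 10.92 and 11.20 against 8.45, 8.71 and 9.19. The groups did not overlap on either day, although the control arrays were themselves more scattered than for Ccng1. The rise was 2.17 ± 0.31 (adjusted p = 1.84e-08) at day 3 and 2.46 ± 0.31 (adjusted p = 5.24e-11) at day 7. The second Cdkn1a probe set gave 1.51 and 2.10, both called.

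Mdm2, the ligase that returns p53 to degradation, read 9.33, 8.66 and 8.94 at day 3 against 7.09, 7.14 and 7.30. At day 7 the values were 9.46, 8.95 and 8.17 against 7.36, 7.09 and 7.03, so array 3 was the lowest of the treated arrays but still above every control. Mdm2 rose by 1.80 ± 0.19 (adjusted p = 3.72e-16) and 1.70 ± 0.19 (adjusted p = 1.26e-14). Its second probe set gave smaller changes of 0.83 and 0.61, both called.

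Phlda3, a p53-induced repressor of Akt signalling, rose by 1.08 ± 0.22 at day 3 (adjusted p = 0.000263) and 1.28 ± 0.22 at day 7 (adjusted p = 6.06e-06). Ei24, an endoplasmic reticulum protein induced by p53, passed at day 3 with 0.61 (adjusted p = 0.000219), and the day 7 value was 0.35 (adjusted p = 0.0692). The polo-like kinase Plk2 likewise passed at day 3 (0.88, adjusted p = 0.0471), with 0.45 (adjusted p = 0.391) at day 7. Perp, a junctional protein with a role in apoptosis, passed at day 7 with 0.64 (adjusted p = 0.00144) after 0.42 (adjusted p = 0.0873) at day 3. None of these differences between days passed a test of the difference itself. Among the members that were not called, the growth and differentiation factor Gdf15 changed by 0.43 and 0.46, the death receptor Fas by -0.06 and 0.16, and Gadd45a, a stress gene often raised by DNA damage, by -0.04 and -0.17. Ddb2, which recognizes damaged DNA, gave -0.40 at day 3 (adjusted p = 0.00308), below the fold limit, and -0.25 at day 7.

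The lists of DNA repair genes held few calls. Outside these lists Nhej1, a gene of DNA end joining, rose by 1.23 and 1.69 and was called at both days. Of the 26 measured members of nucleotide excision repair, the pathway that removes bulky adducts, none was called at either day, with 5 at an unadjusted p below 0.05 at each day and changes between -0.40 and 0.52. Of the 26 measured genes of other repair and bypass pathways, 1 rose at both days, beside 0.672% of all genes at day 3 and 0.884% at day 7. This gene was Mgmt, which takes alkyl groups off the O6 position of guanine. Mgmt read 10.02, 10.33 and 10.48 at day 3 against 8.40, 8.28 and 8.70, and 9.88, 9.27 and 10.16 at day 7 against 8.29, 8.40 and 8.49. Every treated array stood above every control, and array 2 of day 7 was the lowest of them. The rise was 1.81 ± 0.23 (adjusted p = 1.07e-10) and then 1.38 ± 0.23 (adjusted p = 2.5e-06).

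**Figure D1:**
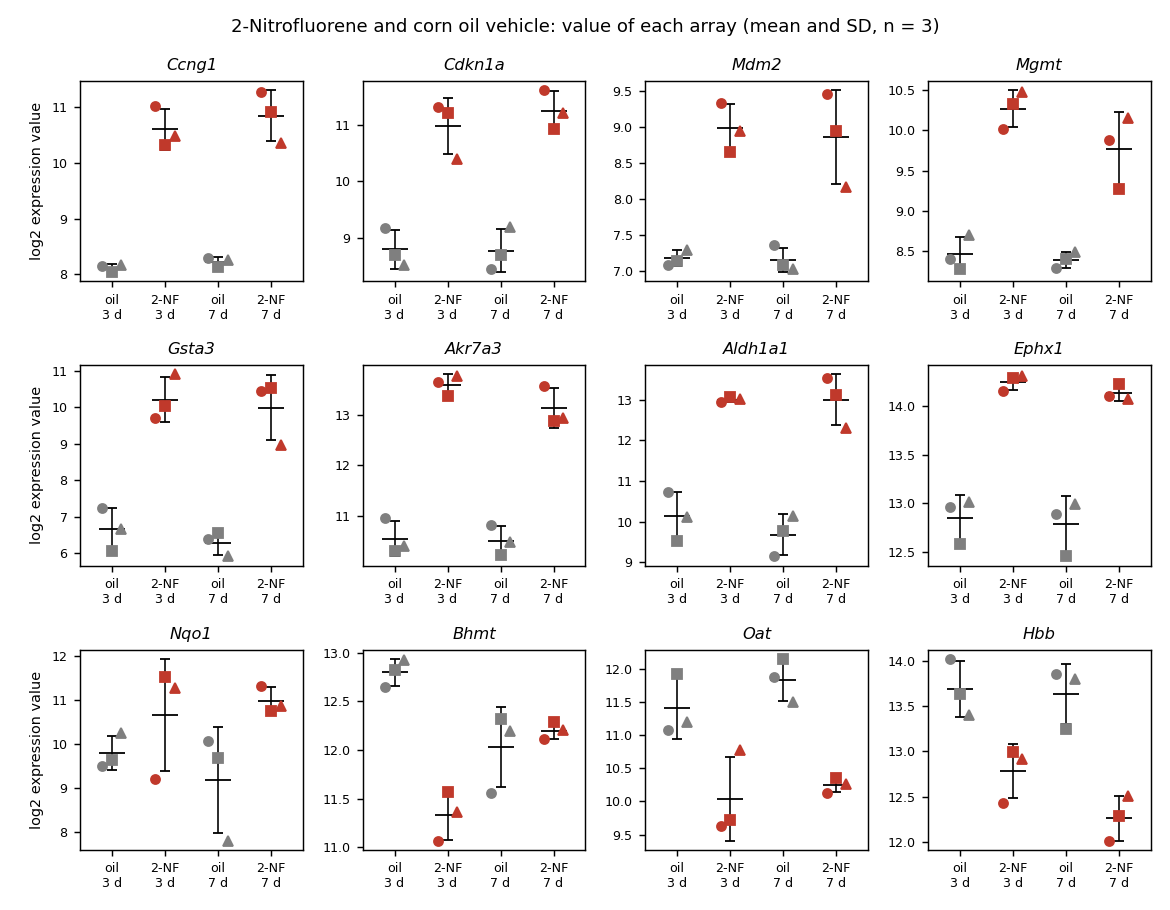
Log2 intensity (vertical axes) of 12 genes in the 4 groups (horizontal axes), with 1 symbol per array (circle, square and triangle for arrays 1, 2 and 3) and a bar for the mean ± SD of 3 arrays. The 2-NF arrays of Ccng1, Cdkn1a, Mdm2, Mgmt, Gsta3, Akr7a3, Aldh1a1 and Ephx1 lie above the corn oil arrays at both days, Bhmt is low at day 3 and not at day 7, and Oat and Hbb are low at both days.

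The NRF2 target list held 32 measured genes, of which 11 rose at day 3 and 12 at day 7 with none falling, beside 0.672% and 0.884% of all genes. Its median change was 0.47 at day 3 and 0.54 at day 7, and 31 and 29 members lay above 0. The leading member was Gsta3, an alpha class glutathione S-transferase subunit. Glutathione S-transferases, like the aldo-keto reductases, cytochromes P450 and globins named later, are families of near-identical genes, and a probe set may also read a close relative.

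Gsta3 read 9.71, 10.04 and 10.90 in the day 3 2-NF livers and 7.24, 6.06 and 6.68 in controls. At day 7 it read 10.44, 10.54 and 8.98 against 6.39, 6.55 and 5.92. The treated arrays were higher than every control, and array 3 of day 7 was the lowest of them. It rose by 3.55 ± 0.51 (adjusted p = 1.94e-08) and 3.70 ± 0.51 (adjusted p = 2.45e-09), the largest rise among named genes at either day.

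Akr7a3, the aldehyde reductase that detoxifies aflatoxin dialdehyde, read 13.65, 13.36 and 13.76 against 10.96, 10.31 and 10.42 at day 3, and 13.57, 12.87 and 12.94 against 10.82, 10.24 and 10.50 at day 7. Every treated liver exceeded every control. It rose by 3.03 ± 0.32 (adjusted p = 1.59e-15) and 2.61 ± 0.32 (adjusted p = 7.45e-12). Aldh1a1, which oxidizes retinaldehyde and other aldehydes, read 12.95, 13.07 and 13.02 against 10.74, 9.53 and 10.11 at day 3. At day 7 it read 13.55, 13.12 and 12.32 against 9.14, 9.77 and 10.14. The controls varied more than the treated arrays at day 3. The changes were 2.89 ± 0.47 (adjusted p = 8.13e-07) and 3.31 ± 0.47 (adjusted p = 4.7e-09).

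Ephx1, the microsomal epoxide hydrolase, was already among the brightest probe sets in controls (12.96, 12.58 and 13.01 at day 3, and 12.89, 12.45 and 12.99 at day 7). In 2-NF livers it read 14.16, 14.29 and 14.31, and then 14.11, 14.23 and 14.08, so the treated arrays were closely grouped. The rise was 1.40 ± 0.17 (adjusted p = 1.37e-12) and 1.36 ± 0.17 (adjusted p = 5.79e-12). The Ephx1 promoter, chr13:95263068-95263367 on the minus strand (RefSeq, GRCr8), and that of Gclm, chr2:213031885-213032184 on the plus strand, are shown because each holds a core of the antioxidant response element, TGACNNNGC on either strand, in capitals.
Ephx1: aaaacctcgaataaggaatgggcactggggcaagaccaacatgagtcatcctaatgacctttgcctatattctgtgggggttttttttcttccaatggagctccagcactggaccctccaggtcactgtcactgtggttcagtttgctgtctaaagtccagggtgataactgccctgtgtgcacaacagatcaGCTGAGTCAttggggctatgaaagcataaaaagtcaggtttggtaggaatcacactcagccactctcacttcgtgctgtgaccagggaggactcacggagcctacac
Gclm: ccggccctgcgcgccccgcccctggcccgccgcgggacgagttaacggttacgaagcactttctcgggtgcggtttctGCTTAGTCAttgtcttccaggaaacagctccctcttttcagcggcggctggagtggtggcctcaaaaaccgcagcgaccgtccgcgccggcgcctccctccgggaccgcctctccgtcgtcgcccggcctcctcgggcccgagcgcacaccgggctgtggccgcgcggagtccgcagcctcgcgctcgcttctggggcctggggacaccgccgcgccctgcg
The windows of the leading members Gsta3, Akr7a3 and Aldh1a1, and those of Nqo1, Gclc and Srxn1, held no such core. The core was present in 9 of the 28 NRF2 targets with a promoter (32.1%), in 6 of the 15 p53 targets (40.0%) and in 6 of the 41 genes that rose at both days (14.6%). It was in 14.7% of the promoters of measured genes and in 12.1% of all, so the share among the genes that rose was near that of measured genes. The xenobiotic response element core of the aryl hydrocarbon receptor, GCGTG on either strand, was in 21 of the same 41 (51.2%), in 46.4% of the promoters of measured genes and in 29.7% of all.

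Both subunits of glutamate-cysteine ligase, the first step of glutathione synthesis, rose at day 3 (Gclc 0.86, adjusted p = 0.0024, and Gclm 0.85, adjusted p = 0.00371), and their day 7 values were 0.56 (adjusted p = 0.0785) and 0.43 (adjusted p = 0.222). Gss, the second step, was called at day 7 with 0.76 (adjusted p = 4.92e-06) and gave 0.52 (adjusted p = 0.00616) at day 3, just under the fold limit. Glutathione reductase (Gsr) rose by 0.68 and 0.72, sulfiredoxin (Srxn1) by 0.59 and 0.77, and the canalicular export pump Abcc2 by 0.75 and 0.76, all called at both days. The mu class transferases Gstm3 (1.00) and Gstm4 (1.26) rose at day 3, with 0.52 (adjusted p = 0.271) and 0.75 (adjusted p = 0.151) at day 7. At day 7 the microsomal transferase Mgst2 (0.64) and 2 enzymes of the pentose phosphate pathway, Pgd (0.59) and Tkt (0.74), were called.

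Nqo1, the quinone reductase that serves as the usual marker of NRF2 activity, was uneven. At day 3 the treated arrays read 9.20, 11.52 and 11.26 against 9.50, 9.62 and 10.24, so array 1 lay below every control, and the change was 0.88 ± 0.50 (adjusted p = 0.409). At day 7 they read 11.32, 10.74 and 10.85 against 10.06, 9.68 and 7.80, with a change of 1.79 ± 0.50 (adjusted p = 0.0139). Control array 3 was far below the others, and without it the change was 1.10 (adjusted p = 0.372). The day 7 call was lost in 4 of 12 alternative runs. Gpx2, a glutathione peroxidase, read 8.85, 7.70 and 7.08 at day 7 against 6.16, 6.23 and 6.32, and rose by 1.64 ± 0.40 (adjusted p = 0.00287), with 0.58 (adjusted p = 0.53) at day 3. Haem oxygenase (Hmox1) gave 0.07 and 0.04 and the carbonyl reductase Cbr3 -0.01 and -0.19, neither called.

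**Figure D2:**
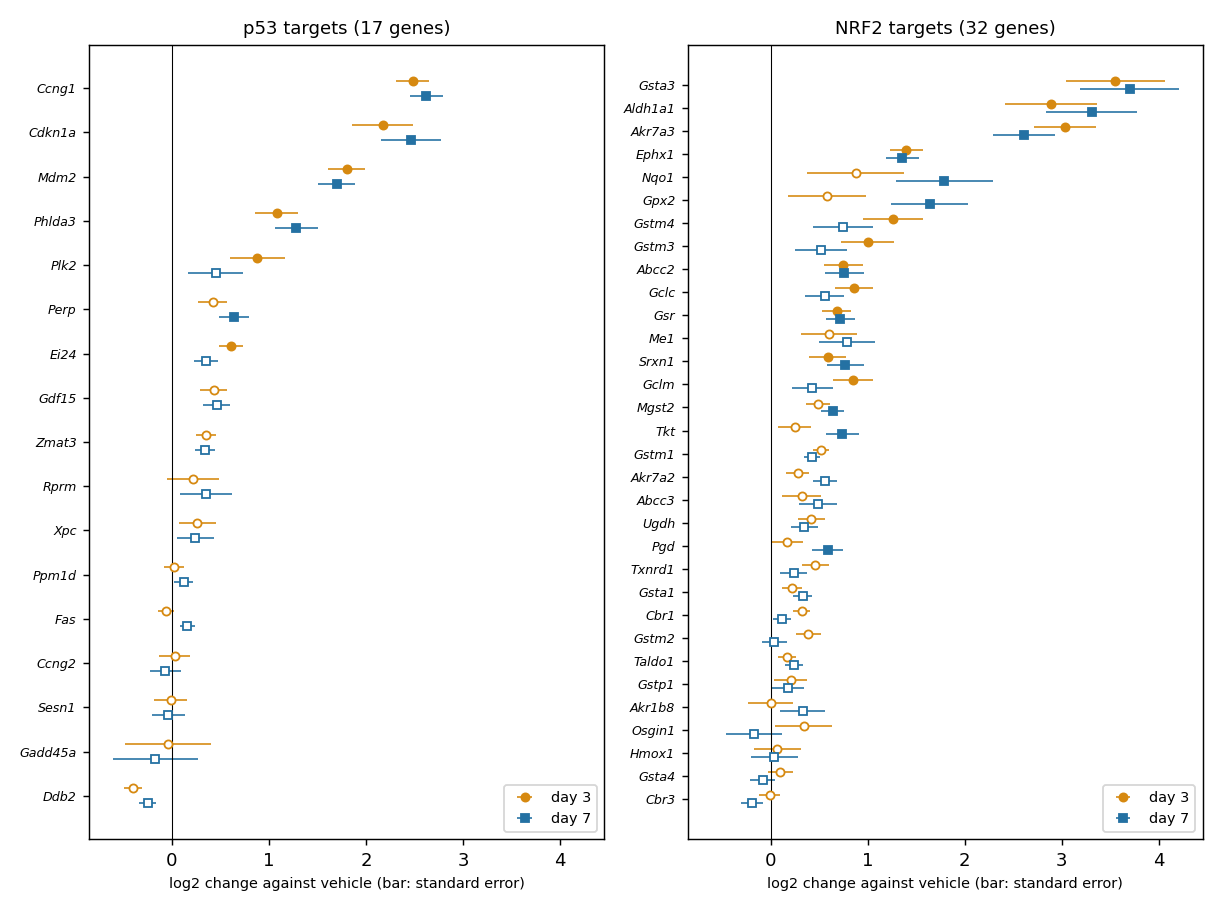
Log2 change against corn oil ± SE (horizontal axis) of each measured p53 target (17 genes) and NRF2 target (32 genes) (vertical axis) at days 3 and 7, with filled symbols for called genes. Ccng1, Cdkn1a and Mdm2 lead the p53 targets and Gsta3, Akr7a3 and Aldh1a1 the NRF2 targets, and most other members lie between 0 and 1.

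Targets of the xenobiotic receptors CAR and PXR overlapped with these. Of 22 measured, 4 rose at day 3 (Aldh1a1, Ephx1, Abcc2 and Ces2c) and 6 at day 7, when Ugt2b1 and Slco1a4 were also called, and 1 fell at day 7. Of all genes 0.672% and 0.884% rose and 0.442% fell at day 7, and the list's median was 0.26 and 0.29. Ces2c, a carboxylesterase, read 10.10, 10.22 and 10.25 against 8.11, 8.77 and 8.86 at day 3, and 10.96, 10.30 and 9.74 against 8.28, 8.50 and 8.58 at day 7. Its treated arrays were all higher than its controls, by 1.61 ± 0.23 (adjusted p = 5.56e-09) and 1.88 ± 0.23 (adjusted p = 2.78e-12) on average. Ugt2b1, a glucuronosyltransferase, changed by 1.20 at day 7 (adjusted p = 0.00577) and 0.95 at day 3 (adjusted p = 0.0531). The organic anion transporter Slco1a4 rose by 0.85 at day 7 (adjusted p = 0.00554). Cyp3a9, a steroid-metabolizing P450, fell at day 7, where the 2-NF arrays read 8.55, 9.87 and 8.73 against 10.16, 11.04 and 10.58 (-1.54 ± 0.45, adjusted p = 0.0206).

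Of 23 measured genes of nitroarene and arylamine metabolism, Ephx1 rose and the sulfotransferase Sult1c2a fell at day 3 (-0.71, adjusted p = 0.00082), and at day 7 Nqo1, Ugt2b1 and Ephx1 rose and Sult1c2a fell (-0.61, adjusted p = 0.00489). These calls are 2 and 4 of 23, beside 1.09% and 1.33% of all genes, and the list's median was 0.16 and 0.18. The acetyltransferases Nat1 (0.16 and 0.22) and Nat2 (0.06 and 0.16) were not called. Cyp1a2, the P450 that N-hydroxylates aromatic amines, read 13.65, 13.84 and 13.90 against 13.36, 13.67 and 13.55 at day 3 and 13.83, 13.68 and 13.79 against 13.51, 13.21 and 12.66 at day 7. Its changes were 0.27 (adjusted p = 0.698) and 0.64 (adjusted p = 0.131), and neither passed. Cyp1a1, the classical aryl hydrocarbon receptor target, gave 0.96 (adjusted p = 0.261) and 1.33 (adjusted p = 0.0584). Of the 6 measured targets of that receptor, only Nqo1, also an NRF2 target, was called, at day 7.

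Other genes among the 10 largest rises came from no common list. Vxn read 9.01, 8.29 and 8.35 against 6.00, 6.10 and 6.03 at day 3, and 8.22, 7.66 and 7.66 against 6.12, 6.15 and 6.19 at day 7. Its controls hardly varied, but they were dim, well below the array medians of 7.40 to 7.46. Vxn rose by 2.51 ± 0.18 (adjusted p = 3.05e-30) and 1.69 ± 0.18 (adjusted p = 2.57e-15). Cyp2c12, a steroid hydroxylase normally prominent in female rat liver, read 11.28, 11.14 and 10.76 against 9.78, 7.44 and 9.06 at day 3 and 11.35, 10.98 and 10.52 against 9.81, 8.45 and 8.51 at day 7. The male controls were widely scattered, array 2 of day 3 being the lowest, and the rise was 2.30 ± 0.48 (adjusted p = 0.000453) and 2.03 ± 0.48 (adjusted p = 0.00265). The call was lost at day 3 without control array 2 and at day 7 without 2-NF array 1. It was the only one of 13 measured female-biased genes called higher at either day, beside 0.672% and 0.884% of all genes. The list as a whole leaned lower, with medians of -0.20 and -0.19 and 4 and 1 members above 0. Its member Cyp3a9 was called lower at day 7. Of 16 male-biased genes none was called at either day, with 3 at an unadjusted p below 0.05 at each. Atp6v1d, a subunit of the vacuolar proton pump, rose by 1.78 ± 0.14 at day 3 (11.61, 11.13 and 11.49 against 9.78, 9.49 and 9.64) and by 1.76 ± 0.14 at day 7 (11.92, 11.50 and 10.79 against 9.84, 9.61 and 9.48). The predicted gene 4930522L14Rikl rose by 1.60 ± 0.20 (adjusted p = 4.83e-11) and 2.04 ± 0.20 (adjusted p = 1.09e-17).

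Of the glutathione and methionine list, Bhmt, Dmgdh and Gnmt fell at day 3, while Gclc, Gclm and Gsr rose. Bhmt, which remethylates homocysteine from betaine, read 11.07, 11.57 and 11.36 against 12.65, 12.82 and 12.93, and fell by 1.47 ± 0.30 on the log2 scale (adjusted p = 0.000286). At day 7 the arrays read 12.11, 12.29 and 12.21 against 11.56, 12.32 and 12.20 and overlapped (0.18, adjusted p = 0.812). Dmgdh, the next step in the breakdown of betaine, fell at day 3 (-1.28 ± 0.22, adjusted p = 3.03e-06) and gave -0.58 (adjusted p = 0.0943) at day 7. Gnmt, which uses S-adenosylmethionine to methylate glycine, fell at day 3 (-0.86, adjusted p = 0.0175) and gave -0.17 (adjusted p = 0.763) at day 7. Cystathionine beta-synthase (Cbs) was called at day 7 instead (-0.74, adjusted p = 0.000505), with -0.50 (adjusted p = 0.044) at day 3. In all, 3 of 21 measured genes of glutathione and methionine metabolism rose and 3 fell at day 3, and 3 rose and 1 fell at day 7, with medians of -0.05 and 0.06. Of all genes 0.672% rose and 0.413% fell at day 3, and 0.884% and 0.442% at day 7.

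Apoa4, an apolipoprotein of chylomicrons, read 10.71, 11.04 and 10.21 against 12.63, 12.34 and 12.47 at day 3 and fell by 1.82 ± 0.34 on the log2 scale (adjusted p = 4.68e-05). At day 7 it read 8.83, 11.22 and 11.48 against 12.21, 11.30 and 12.15, and the groups overlapped (-1.38, adjusted p = 0.00418). Oat, ornithine aminotransferase of the pericentral zone, read 9.63, 9.72 and 10.77 against 11.08, 11.92 and 11.20 at day 3, and 10.13, 10.35 and 10.27 against 11.87, 12.14 and 11.50 at day 7. Its groups were apart at both days, with changes of -1.36 ± 0.33 (adjusted p = 0.00405) and -1.58 ± 0.33 (adjusted p = 0.000419). The remaining large falls of day 3 were those of the stress regulator Nupr1 (-1.64, adjusted p = 0.000784), Nrep (-1.54, adjusted p = 0.0155), the phosphoinositide 3-kinase regulatory subunit Pik3r1 (-1.31, adjusted p = 0.00665), the acyl-CoA synthetase Acsm3 (-1.22, adjusted p = 0.0122), the nucleotide receptor P2ry2 (-1.18, adjusted p = 0.0268) and the bile acid and fatty acid CoA ligase Slc27a5 (-1.13, adjusted p = 0.0011). At day 7 these 6 gave -0.95, -0.95, -0.28, 0.02, -0.37 and -0.65 in the same order, none called. Of the day 3 falls, Oat, Acsm3, P2ry2 and Slc27a5 did not pass without 2-NF array 1, Pik3r1 not without array 2, and Nrep not without array 3. Other runs lost calls too. Of 12 alternative runs described below, the call was lost in 5 for P2ry2, 4 each for Oat and Pik3r1, 3 for Acsm3, and 2 each for Slc27a5 and Nrep.

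The largest fall at day 7 was that of Akr1c1, an aldo-keto reductase of steroid metabolism, which read 7.11, 8.22 and 7.58 against 9.88, 9.76 and 9.45 (-2.06 ± 0.36, adjusted p = 5.34e-06). It had also fallen at day 3 (-1.24, adjusted p = 0.0199), where 7.32, 7.60 and 8.36 stood against 8.07, 9.30 and 9.64 and the groups overlapped. Il33, an alarmin cytokine of the interleukin 1 family, read 8.50, 9.30 and 8.70 against 10.42, 10.57 and 9.88 at day 7 (-1.46 ± 0.27, adjusted p = 2.3e-05) and gave -0.96 (adjusted p = 0.0161) at day 3. A second Il33 probe set gave -0.72 and -1.36, both called. The lipolysis inhibitor G0s2 (-1.25, adjusted p = 0.0106), the steroid dehydrogenase Hsd17b6 (-1.12, adjusted p = 0.00746) and the calcineurin regulator Rcan2 (-1.10, adjusted p = 0.0142) were called at day 7 alone, with -0.79, -0.30 and -0.86 at day 3. These 3 genes, and Cyp3a9, did not pass at day 7 without 2-NF array 1, nor in some other runs. Of 12 alternative runs described below, the call was lost in 6 for Cyp3a9, 5 for G0s2 and 3 for Hsd17b6, and in 4 of 13 for Rcan2.

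Of 9 measured red cell genes, 1 fell at day 3 and 3 fell at day 7, beside 0.413% and 0.442% of all genes, and the medians were -0.21 and -0.27. Hbb, the beta globin, read 12.01, 12.28 and 12.51 against 13.86, 13.25 and 13.80 at day 7 (-1.37 ± 0.31, adjusted p = 0.00144), and 12.43, 12.99 and 12.92 against 14.03, 13.64 and 13.41 at day 3 (-0.91, adjusted p = 0.0765). Treated arrays lay below controls at both days. Hba-a3 fell at both days (-0.90, adjusted p = 0.0254, and -1.22, adjusted p = 0.000762), and Alas2, the erythroid first enzyme of haem synthesis, at day 7 (-1.35, adjusted p = 0.00997) after -1.08 (adjusted p = 0.0693) at day 3. The day 7 Alas2 fall did not pass in 3 of 12 alternative runs, among them those without 2-NF array 1 and without control array 3. The summed level of the list, as its mean per array, was 8.22 to 8.36 in 2-NF and 8.46 to 8.78 in oil at day 3, and 8.08 to 8.23 against 8.52 to 8.82 at day 7. In whole liver, fewer cells of a type and less RNA per cell cannot be told apart.

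Lists of other cell types held few calls. For T and NK cells (19 genes), neutrophils and mast cells (13), stellate cells and fibroblasts (31), endothelial cells (14), adipose and muscle (18), pancreas (16) and hepatocytes (11), none passed the limma test at either day, and between 0 and 3 members of each had an unadjusted p under 0.05. Of 12 macrophage markers, Cd14 fell at day 3 (-0.63, adjusted p = 0.0358) and Cd68 rose at day 7 (0.72, adjusted p = 0.022). Beside this stand 0.413% of all genes that fell at day 3 and 0.884% that rose at day 7. The macrophage array means at day 7 were 9.05 to 9.22 in 2-NF and 8.71 to 9.05 in oil, and the list's median change was 0.42. At day 3 the means were 8.99 to 9.18 in 2-NF and up to 9.29 in oil, and the corn oil arrays were lower at day 7 (median change of -0.32 between the corn oil groups, 1 of 12 members above 0) while the 2-NF means of the 2 days overlapped. The part of macrophages in the day 7 rises was not tested. Epcam, an epithelial adhesion molecule of bile ducts and progenitors, rose at day 7 (0.96, adjusted p = 0.00666) as the only one of 17 cholangiocyte and progenitor markers, beside 0.884% of all genes. Of 38 cell cycle genes, the phosphatase Cdc25b fell at day 7 (-0.80, adjusted p = 0.0116), beside 0.442% of all genes. The median of the cell cycle list was 0.07 at day 3 and -0.20 at day 7.

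Of 51 PPARA targets 1 was called at each day, beside 1.09% and 1.33% of all genes. The day 3 call, a rise of Eci1 (1.43), was not shared by its second probe set (-0.01). The day 7 call was a fall of Pex11a (-0.70). Acaca, the first committed enzyme of fatty acid synthesis, rose at day 7 (0.95, adjusted p = 0.000769) as 1 of 24 in its list, and Fdft1, squalene synthase, at day 7 (0.78, adjusted p = 0.0048) as 1 of 19 genes of cholesterol synthesis. Both are single calls, beside 0.884% of all genes that rose at day 7. Of 28 interferon response genes none was called at either day, with 6 and then 3 at an unadjusted p below 0.05. Of 19 circadian clock genes none was called either (0 and 4 at such a p). Of 18 heat shock genes none was called (6 and 3), but all 18 lay above 0 at day 3, with a median of 0.28 and array means of 9.48 to 9.79 in 2-NF and 9.24 to 9.45 in oil. At day 7 those means overlapped (9.43 to 9.70 and 9.33 to 9.57). Of 28 acute phase genes none was called (8 and 8), and the 2-NF array means lay below oil at both days, at 11.82 to 11.90 against 11.96 to 12.06 and at 11.87 to 11.94 against 11.96 to 12.03. Of 27 immediate early and stress genes, Ifrd1 (1.12, adjusted p = 0.00556) and Zfp36 (0.64, adjusted p = 0.0249) rose at day 7, beside 0.884% of all genes, and none was called at day 3 (2 at such a p).

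The gene sets of the 2 days overlapped. Of the genes called, 63 were called at both days, 45 higher and 18 lower with none in opposite directions, which is 55.8% of the day 3 genes and 45.7% of the day 7 genes. Of the 50 genes called at day 3 alone, 48 had the same sign at day 7, and of the 75 called at day 7 alone, 74 had the same sign at day 3. Across all 10411 genes the 2 changes correlated at r = 0.724 and had the same sign in 71.4%, which is a description, since genes are not independent replicates. The days have separate treated and control animals.

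**Figure D3:**
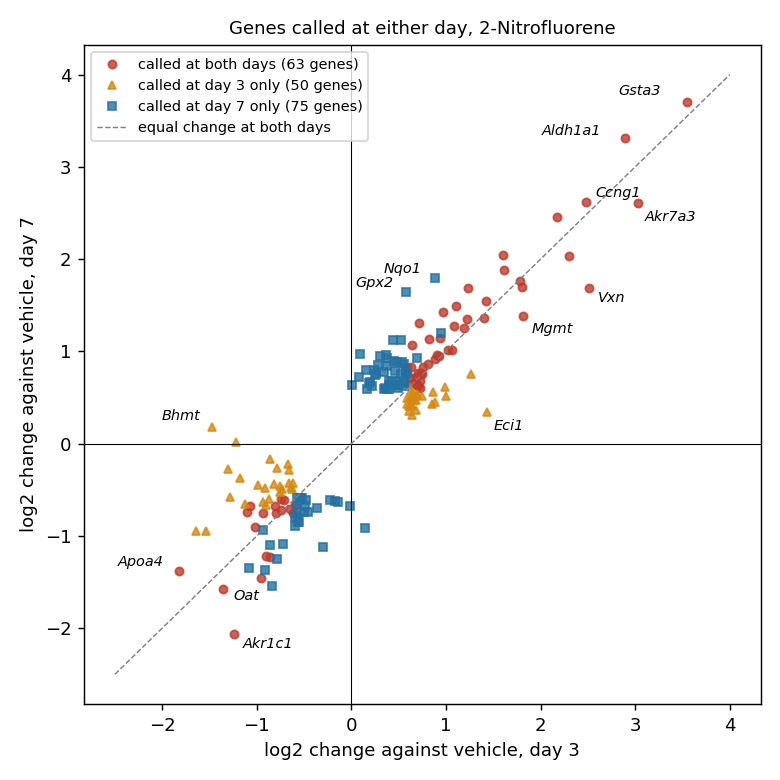
Log2 change against corn oil at day 3 (horizontal axis) and day 7 (vertical axis) of the 188 genes called at either day, each point being 1 gene, marked by the day or days at which it was called. The 63 genes called at both days lie in the upper right and lower left, and genes called at 1 day mostly share their sign.

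The change between days was tested as the difference of the 2 treatment effects. This takes out drift shared by treated and control animals, while a shift of the controls alone enters the result. No probe set passed in limma, where 432 had a p under 0.05 before adjustment. Between the 2 corn oil groups none passed either, and 953 had such a p. The smallest p was that of Bhmt, whose fall at day 3 was absent from the day 7 means (change of 1.64 ± 0.43, unadjusted p = 0.00014, adjusted p = 0.705). Hcfc1r1 followed with 0.51 (adjusted p = 0.705), and Spa17 with 0.65 (adjusted p = 0.83). Spa17 treated arrays read 6.96, 7.29 and 7.04 at day 3 and 7.50, 7.10 and 6.89 at day 7, while its controls read 6.93, 6.98 and 6.92 and then 6.40, 6.42 and 6.25, so the controls were lower at day 7. In the other direction, Eci1 gave -1.09 ± 0.33 and Vxn -0.81 ± 0.25 (adjusted p = 1 for both).

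The animals of 1 group differed in how far they had moved. At day 7, array 1 was the farthest from the control mean in 108 of the 138 called genes and array 3 the nearest in 85, with median distances of 1.09, 0.71 and 0.64 log2 units for arrays 1, 2 and 3. At day 3, array 1 was the farthest in 60 of 113, with median distances of 0.99, 0.77 and 0.77. These counts use the genes that the same arrays had called, and serve as a description. Without array 1 the day 7 comparison called 84 probe sets, and without array 3 it called 283.

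At day 7, 82 probe sets differed between 2-NF and DMN (0.517%), of which 29 were higher with 2-NF and 53 lower. Among named genes 62 differed (0.596%), 20 higher and 42 lower. The doses were 44 and 4 mg/kg, so the values compare these animals at these doses. DMN is a small nitrosamine that methylates DNA. None of the 17 p53 targets differed, with a list median of 0.09. The difference between compounds was 0.19 for Cdkn1a (95% interval -0.42 to 0.81), 0.09 for Mdm2 (-0.28 to 0.45) and 0.49 for Ccng1 (0.15 to 0.83, adjusted p = 0.191). Against corn oil, DMN gave 2.27, 1.61 and 2.13 for these 3 genes. The interval of Cdkn1a leaves room for a difference of more than 1.5-fold, so the 2 compounds are not shown to act alike. Gsta3 was higher with 2-NF, at 10.44, 10.54 and 8.98 against 8.72, 7.63 and 7.20 with DMN (2.14 ± 0.51, adjusted p = 0.00736), and Gclc by 0.79 (adjusted p = 0.015). The Gsta3 difference did not pass in 5 of 11 alternative runs, among them those without 2-NF array 1 or 2, or DMN array 2 or 3.

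The interferon response separated the 2 compounds. Of 28 measured genes 9 were lower with 2-NF and none higher, with a median difference of -0.41, and 0.403% of all genes were lower. Gbp2, an interferon-induced GTPase, read 5.87, 5.73 and 6.00 with 2-NF, 7.82, 8.35 and 8.77 with DMN, and 5.92, 5.81 and 5.66 in oil, so the 2-NF livers stood at the level of controls (difference of -2.45 ± 0.19, adjusted p = 3.15e-26). The chemokine Cxcl9 (8.34, 8.08 and 8.10 against 9.49, 10.45 and 10.31) differed by -1.91, the immunoproteasome subunits Psmb9 by -1.67 and Psmb10 by -1.49, and the peptide transporter Tap1 by -1.21, all called. Other lists moved with it. Of 8 class II histocompatibility genes 2 were lower with 2-NF and none lay above 0 (median -0.80), and of 38 cell cycle genes 2 were lower and 2 lay above 0 (median -0.37, 22 at an unadjusted p under 0.05). Among the 12 macrophage markers, Gpnmb (-1.60) and Lgals3 (-1.16) were lower (median -0.10). The part of these cells in the interferon difference was not tested. Of the 18 pericentral genes, 4 were higher with 2-NF, beside 0.192% of all genes. The Inmt call was lost when 2-NF array 2 or DMN array 1 or 3 was left out, and the Oat call in the fit on the block alone. Cyp1a2 read 13.83, 13.68 and 13.79 against 12.03, 11.48 and 11.86 with DMN (1.98 ± 0.26, adjusted p = 9.37e-10), and Inmt (1.96), Oat and Cyp2e1 were the others. Oat read 8.45, 8.93 and 8.88 with DMN, below every 2-NF array (adjusted p = 0.00255). Oat fell with both compounds against oil, by 1.58 with 2-NF and by 3.08 with DMN on the log2 scale. Igfbp3, which binds insulin-like growth factors, was 1.32 higher with 2-NF.

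Between 2-NF and CIDB, an azo dye given at 146 mg/kg, 370 probe sets differed at day 7 (2.33%), 187 higher with 2-NF and 183 lower. Among named genes 266 differed (2.55%), 149 higher (1.43%) and 117 lower (1.12%). Of 17 p53 targets, 6 were lower with 2-NF and 1, Xpc, was higher, with a list median of -0.36 and 5 members above 0. Mdm2 read 9.46, 8.95 and 8.17 with 2-NF and 10.41, 10.30 and 11.10 with CIDB (-1.75 ± 0.19, adjusted p = 1.65e-15). Cdkn1a read 12.96, 12.40 and 12.98 with CIDB, above every 2-NF array (-1.54, adjusted p = 8.56e-05). Of 32 NRF2 targets, 9 were higher with 2-NF, among them Akr7a3 (1.40, adjusted p = 0.000636) and Pgd (1.60), and 1, Srxn1, was lower (-0.83). The NRF2 list as a whole was divided, with a median difference of 0.09 and 18 members above 0. Gsta3 differed by -0.68 (adjusted p = 0.506, 95% interval -1.69 to 0.33) and Ephx1 by 0.09 (-0.24 to 0.41), and neither was called.

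Genes of fatty acid synthesis also differed between these groups, with 11 of 24 genes higher with 2-NF and none lower (1.43% of all genes were higher). Scd, the stearoyl-CoA desaturase, read 12.39, 13.22 and 13.33 with 2-NF and 8.88, 7.66 and 8.02 with CIDB (4.79 ± 0.71, adjusted p = 1.6e-08), while 2-NF against oil gave 1.30 (adjusted p = 0.296). Thrsp (2.54), Fads1 (2.02) and Fasn (1.79) were further members. Hbb was also higher with 2-NF than with CIDB, where it read 8.43, 8.79 and 8.87 (3.57 ± 0.31, adjusted p = 1.25e-21). Ifrd1, an immediate early gene, read 8.76, 7.24 and 7.51 with 2-NF against 10.55, 10.99 and 10.07 with CIDB (-2.69 ± 0.29, adjusted p = 1.65e-15). In its list 6 of the 27 genes were lower with 2-NF, including the transcription factor Egr1 (-2.18), beside 1.12% of all genes. The Egr1 call was lost in 2 of 11 alternative runs, among them the run without 2-NF array 3. Cyp8b1, the sterol 12-hydroxylase of bile acid synthesis, was lower by -1.78 and Serpina7, the thyroxine-binding globulin, by -1.71. Fabp5 was higher by 2.30 and Marveld1 by 2.32.

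**Figure D4:**
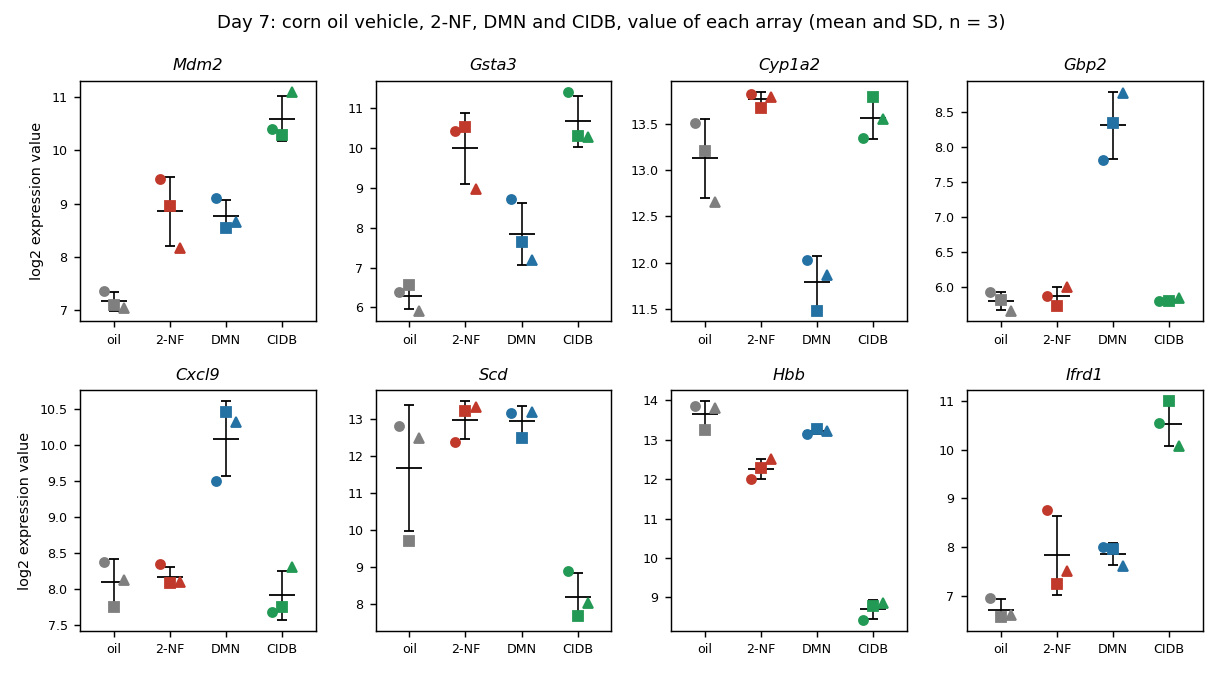
Log2 intensity (vertical axes) of 8 genes at day 7 in corn oil, 2-NF, DMN and CIDB livers (horizontal axes), 1 symbol per array with the mean ± SD of 3 arrays. Gbp2 and Cxcl9 are raised with DMN and not with 2-NF, Scd and Hbb are lowest with CIDB, and Mdm2 is raised with all 3 compounds.

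2-Acetylaminofluorene (2-AAF) shares the fluorene ring and can be metabolized to the same amine, but was given at 1.2 mg/kg in carboxymethyl cellulose in another block. Its values are given only side by side, since dose, vehicle and block differ. At day 3 2-AAF changed Cdkn1a by 0.43, Ccng1 by 0.65, Akr7a3 by 0.17 and Aldh1a1 by 0.39 against its own vehicle, none called. At day 7 it gave 1.61 for Cdkn1a (adjusted p = 0.000341), 1.49 for Ccng1 (adjusted p = 9.53e-12), 0.72 for Mdm2 (adjusted p = 0.0138), 2.11 for Aldh1a1 (adjusted p = 0.00316) and 0.70 for Ephx1 (adjusted p = 0.00697), all called. Gsta3 (0.99, adjusted p = 0.33) and Akr7a3 (0.92, adjusted p = 0.0955) were not.

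Among the 98 treated groups of the series, each against its own vehicle, the 2-NF changes ranked high for several of these genes. Ei24 at day 3 was the largest of all, Gstm4 was in rank 2 and Akr7a3 in rank 3 at day 3, Ephx1 was in ranks 4 and 5 at days 3 and 7, and Ccng1 in ranks 9 and 5. Mgmt was in ranks 5 and 10, and Gsta3 in ranks 12 and 10. At day 7, G0s2 was the lowest of the 98. The groups differ in compound, dose, vehicle and day, so the ranks are a description.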

How the data were processed

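The deposited table holds log2 expression values of 421 arrays and 15866 probe sets. Per the labels the authors summarized and normalized the arrays with Robust Multi-chip Average (RMA), so every value depends on all arrays normalized together. Its version and the arrays in that run are not given in the sources used here. Arrays are named through their titles, and no column was left out. Of the probe sets, 12783 had 1 gene symbol, 312 several and 2771 none. Symbols were updated by gene ID for 12748 and by accession for 2, which gave 10411 genes, each represented by its brightest probe set. The number of arrays per group limits the precision, and no depth applies.

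Tests were run with limma 3.58.1 in R 4.3.3 on the log2 values as deposited, with 1 mean per group over the 136 groups of all 421 arrays (285 residual degrees of freedom), contrasts, empirical Bayes variances and Benjamini-Hochberg adjustment over all probe sets. Intervals cover 95% and use the moderated variance. The script was tested on simulated data. Figures were drawn with matplotlib 3.10.9 in Python 3.11.15. No 2 arrays were identical.

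Named genes are the 10 largest rises and falls of each day among called genes whose arrays did not overlap, the 5 largest in each direction against DMN and CIDB, the 5 of smallest p in each direction for the change between days, and members of gene lists. The arrays, the lists and the tests were chosen with earlier results of these data known. Alternatives were a fit on the compared groups alone, on the block alone, quantile normalization, a minimum mean of 6, no fold limit, a 2-fold limit, all corn oil controls, the replicate number as a block and leaving out each array. At day 7 the deviations of same-numbered 2-NF and corn oil arrays correlated at 0.427, 0.119 and 0.19 across probe sets. Numbers 1 and 3 correlated best with their own number and number 2 did not. With 3 arrays per group, these values do not settle whether the replicate numbers pair the samples. The labels state no pairing.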

Additional observations from a re-analysis of the deposited data

How the results depend on the processing

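With 3 animals per group, small changes are not resolved, and dim probe sets understate folds. The fit on the compared groups alone called 77 probe sets at day 7 in place of 184, and 145 at day 3. Leaving out 1 array gave 106 to 179 calls at day 3, 84 (without 2-NF array 1) to 283 (without 2-NF array 3) at day 7, 0 to 3 for the change between days, 0 to 3 between the corn oil groups, 56 to 112 against DMN and 334 to 407 against CIDB. The p53 list median stayed at 0.30 to 0.43 at day 3 and 0.32 to 0.40 at day 7, and the NRF2 list median at 0.41 to 0.49 and 0.44 to 0.58. Without the fold limit the counts were 659, 878, 193 and 1667 (day 3, day 7, DMN and CIDB), and with a 2-fold limit 51, 61, 31 and 115. With all corn oil controls 249 were called at day 3, 244 at day 7 and 1 for the change between days. The calls for the change between days were Nrcam with all controls, without 2-NF day 3 array 1 and without 2-NF day 7 array 2, and Nrg1 and Cdkn1c without 2-NF day 7 array 3. Between the corn oil groups, quantile normalization and a minimum mean of 6 each called 1, Spa17, and leaving out corn oil day 7 array 1 called 3, Spa17, Bckdk and Mrpl12. The alternatives for the corn oil comparison were added after seeing the data. With the replicate number as a block, 157 were called at day 3, 184 at day 7, 0 for the change between days, 81 against DMN and 374 against CIDB, of which 154, 182, 0, 78 and 368 were also called without it. The block changed the call of no named gene, and the corn oil comparison was not run with it. Same-number correlations were 0.171, -0.018 and 0.035 at day 3, all below 0 for DMN and CIDB. No named gene changed its direction. Of the named genes, 13 of 20 at day 3, 13 of 20 at day 7, 7 of 10 against DMN and 9 of 10 against CIDB kept their call in each alternative run. Mdm2 at day 3, Igfbp3 against DMN and Marveld1 against CIDB gave smaller values over the mean of all their probe sets (1.32, 1.09 and 1.43). Calls were lost in at least 1 alternative for Oat, Pik3r1, Slc27a5, P2ry2, Acsm3, Nrep and Cyp2c12 at day 3, for Nqo1, Cyp3a9, Alas2, G0s2, Hsd17b6, Rcan2 and Cyp2c12 at day 7, for Gsta3, Inmt and Oat against DMN and for Egr1 against CIDB.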
